A study of Arabidopsis thaliana with 6 samples.

Results

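A set of 10 genes of xylem differentiation and thermospermine synthesis was followed in root tips of Arabidopsis thaliana. They were taken by gene identifier, all 10 were among the 18734 genes of the deposited count table, and all 10 passed the filter on low counts. The mutant was ore15-2, in which a T-DNA is inserted in ORE15, and its wild type was the Columbia parent (Col). ORE15 encodes a transcription factor of the PLATZ family. Each genotype has 3 libraries of poly(A) RNA from the last 0.5 cm of the primary root, taken 5 days after planting. The labels name no hormone treatment for any of these samples. Only this insertion line stands for the loss of ORE15. The labels give 2 seedlings per genotype and name no separate cultures, so p-values here measure only the spread between these libraries, which may be technical.

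Water-conducting vessels form in the root from procambial cells that stop dividing, lay down a patterned secondary wall of cellulose, xylan and lignin, and then die. In Arabidopsis the HD-ZIP III factor ATHB8 marks procambium and early xylem. The NAC factors VND6 and VND7 switch on vessel differentiation, and MYB46 acts below such NAC factors on secondary wall genes. Thermospermine is a polyamine made by ACL5 with the help of BUD2, and it restrains xylem differentiation: plants without ACL5 form excess xylem. ATHB8 is known to activate ACL5 and BUD2, and thermospermine in turn lowers ATHB8 expression. CESA4, CESA7 and CESA8 are the subunits of the secondary wall cellulose synthase, and XCP1 is a cysteine protease of maturing vessels that takes part in the breakdown of the dead cell's contents.

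Total counts per library were 6396903 to 16503138 in ore15-2 and 17433440 to 20333352 in Col. Mitochondrial genes took 2.91% and 3.20% of counts in ore15-2 replicates 1 and 2, against 0.328% in ore15-2 replicate 3 and 0.183% to 0.250% in Col. Ore15-2 replicates 1 and 2 were also the shallowest libraries, at 6706712 and 6396903 counts. They stand apart from the other 4, and results that depend on them are also given without them. Without both, ore15-2 has 1 library, so the spread in that fit comes from the 3 Col libraries and the lone ore15-2 library is assumed to vary like them. AT1G31040, annotated as a PLATZ family protein and taken here to be ORE15, had 0, 0 and 1 counts in ore15-2 and 13, 12 and 8 counts in Col. Most genes of a block of chromosome 1 next to it, from AT1G24530 to AT1G31020, were raised in ore15-2, with a median of 1.84-fold to 1.94-fold per library. No member lies in that block. All ore15-2 libraries thus share the raised block as well as the low ORE15 counts, and the part of either in other genes was not tested. The labels call the cells root meristem stem cells, yet markers of differentiated tissue were present in every library: 5 Casparian strip genes summed to 695 to 875 RPKM in ore15-2 and 650 to 817 RPKM in Col, beside 67.3 to 83.3 RPKM in ore15-2 and 83.1 to 84.7 RPKM in Col for 5 meristem genes. RPKM are read counts scaled for gene length and library size. In fits on RPKM the median log2 fold change of all genes, ore15-2 over Col, was -0.21 to -0.23. RPKM values of ore15-2 and Col are thus offset from each other. In the main fit on counts the 5 meristem genes had a median log2 fold change of 0.07. Their median log2 difference from the Col mean was not alike between libraries, at 0.31, 0.21 and -0.26 in ore15-2 replicates 1 to 3.

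Of the 10 members, 1 fell in ore15-2, none rose and 9 did not pass the test. The gene that fell was ACL5, to 47.7% of its mean level in Col. The members ACL5, BUD2, VND6, VND7 and ATHB8 had all 3 ore15-2 libraries below all 3 Col libraries, and in the other 5 (MYB46, CESA4, CESA7, CESA8 and XCP1) the genotypes overlapped. The test was the quasi-likelihood F-test of edgeR with Benjamini-Hochberg adjustment over all 18726 genes tested and a threshold of 0.05. By that rule 3.43% of all genes tested fell and 9.9% were called in either direction, so 1 call among 10 genes is close to the background. All 3 ore15-2 libraries lay below all 3 Col libraries in 16.3% of all genes tested. The fitted log2 fold change was negative in 10 of 10 members, with a median of -0.32, against 50.1% of all genes and a median of 0. The members were chosen with earlier results of these data known, and these counts and medians describe them without testing them as a group. DESeq2 called 2 members, ACL5 and ATHB8, where it called 13.5% of all genes.

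**Figure D1:**
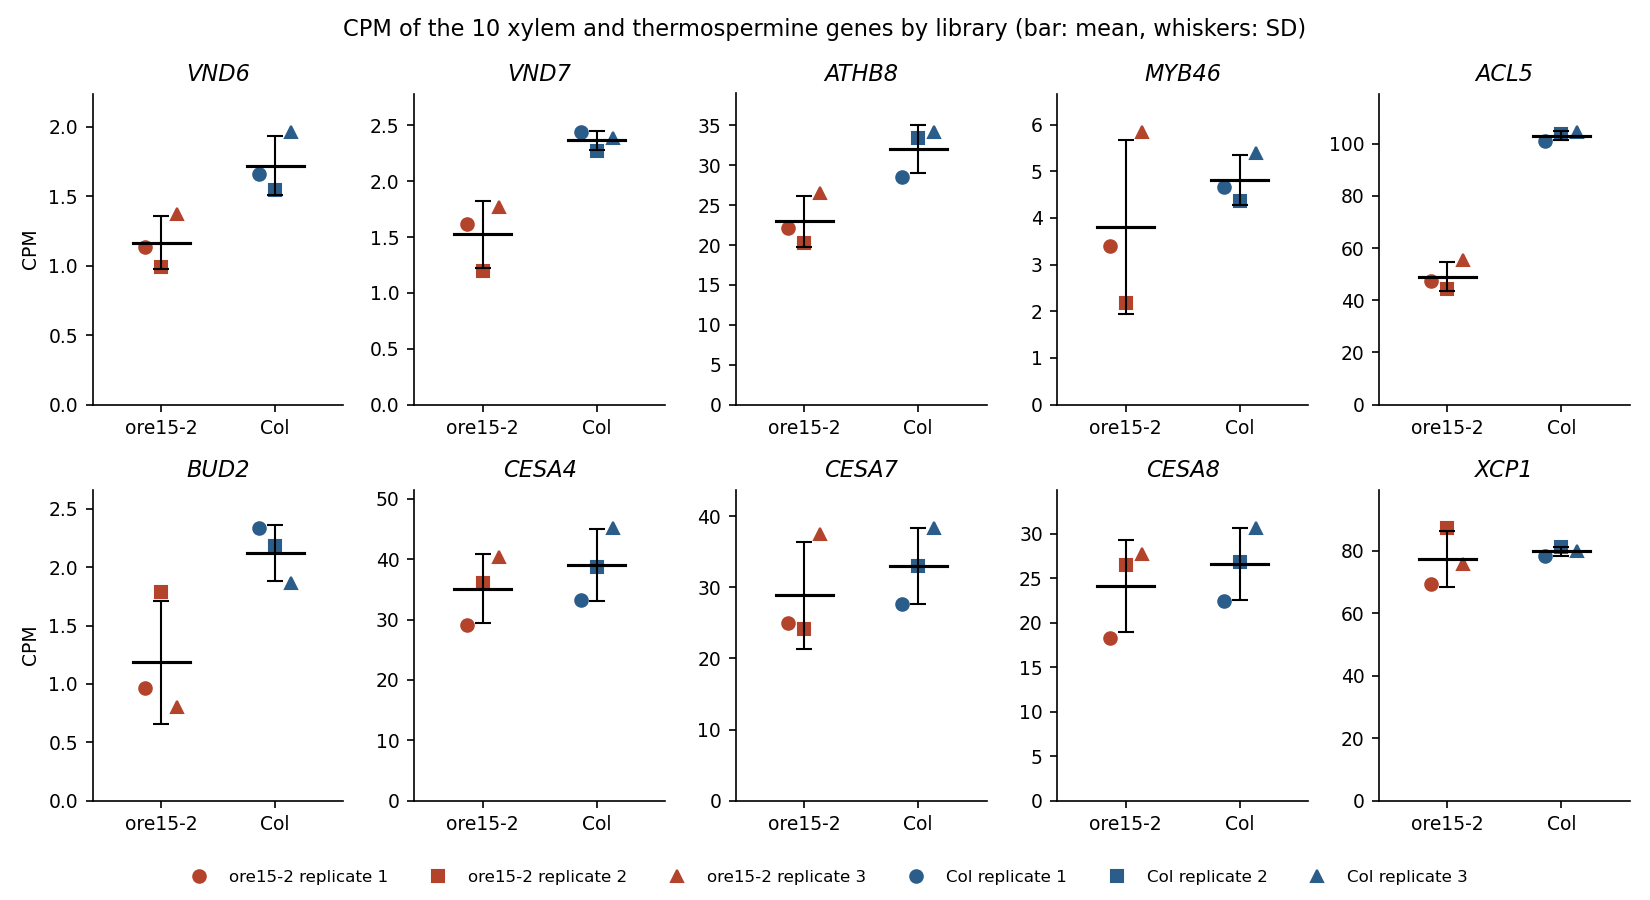
Scaled counts (CPM, y axis, linear and starting at 0) of each member in the 3 ore15-2 libraries (red, left) and the 3 Col libraries (blue, right). Symbols are replicates, the bar is the mean and the whiskers are the SD. ACL5 is separate between the genotypes, at 44.3 to 55.5 CPM in ore15-2 and 101 to 104 CPM in Col.

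ATHB8 (AT4G32880) lies on chromosome 4, at positions 15863339 to 15868650 of TAIR10.1 on the minus strand. It had 22.1, 20.3 and 26.5 CPM in ore15-2 replicates 1 to 3 and 28.6, 33.4 and 34.1 CPM in Col replicates 1 to 3. CPM are counts scaled to a common library size with TMM factors. All ore15-2 libraries were below all Col libraries, though the highest ore15-2 library came near the lowest Col library. The log2 fold change was -0.46 (SE 0.13, 95% interval -0.75 to -0.17) and the edgeR adjusted p of 0.0573 missed the threshold. The adjusted p passed in 3 of 19 alternative analyses. It was 0.0358 with DESeq2, where 13.5% of all genes were called, and 0.0451 with upper-quartile scaling, where 9.64% were called. Without ore15-2 replicate 3 it was 0.00318, in a fit that called 35.3% of all genes. Without ore15-2 replicates 1 and 2 the log2 fold change was -0.26. In these bulk samples, fewer cells of a type and less RNA per cell cannot be told apart, here and for every gene below.

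ACL5 (AT5G19530), the thermospermine synthase, lies on chromosome 5 at 6588771 to 6591363 on the minus strand. Its levels were 47.5, 44.3 and 55.5 CPM in ore15-2 and 101, 104 and 104 CPM in Col. These come from 223 to 970 counts per library in ore15-2 and 1948 to 2283 counts in Col. The means were 49.1 ± 5.74 CPM in ore15-2 and 103 ± 1.77 CPM in Col (SD, n = 3 libraries each), and the 3 Col libraries lay within a narrow range. The log2 fold change was -1.06 (SE 0.11, 95% interval -1.30 to -0.82) with an edgeR adjusted p of 0.000569, rank 103 of the 18726 genes by p. Relative to the Col mean, the 3 ore15-2 libraries differed by -1.11, -1.21 and -0.89 on the log2 scale, so the gap was present in the deep ore15-2 replicate 3 as well as in the shallow replicates 1 and 2. ACL5 was called in 19 of 19 alternatives, with log2 fold changes of -1.30 to -0.88 and adjusted p-values of 1.36e-14 to 0.00844.

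The end of ACL5 overlaps MSL9, a gene for a mechanosensitive channel protein, on the opposite strand by 196 bases. Whether the counting used strand is not given in the sources used here, and reads from the overlap may not be separated. MSL9 had 112, 145 and 81.4 CPM in ore15-2 and 91.7, 80.6 and 85.0 CPM in Col. Its groups overlapped and its log2 fold change was 0.39 (SE 0.18, edgeR adjusted p 0.211), of the opposite sign to that of ACL5.

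The 300 bases before the annotated start of ACL5, chr5:6591364-6591663 on the minus strand of TAIR10.1, are printed because ACL5 is the member that fell and because HD-ZIP III factors such as ATHB8 are known to act on it. The annotation is that of RefSeq. No capital stands in it, since none of the motifs searched was found.
ACL5: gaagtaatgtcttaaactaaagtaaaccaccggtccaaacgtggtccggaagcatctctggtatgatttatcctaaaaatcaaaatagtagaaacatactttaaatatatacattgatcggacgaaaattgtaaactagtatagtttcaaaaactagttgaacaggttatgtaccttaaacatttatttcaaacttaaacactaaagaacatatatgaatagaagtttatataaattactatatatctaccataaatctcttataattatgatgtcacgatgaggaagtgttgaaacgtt
The motifs searched on both strands were the HD-ZIP III palindrome (GTAAT, any base, ATTAC), the auxin response element (TGTCTC) and the tracheary element-regulating element (CTT, any base, AAAGC, any base, A), a motif of promoters active in vessels. No window of the 10 members held the palindrome, which was found in 15 of 27431 windows of the same length (0.0547%). A missing match says only that these letters do not stand in these windows.

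BUD2 (AT5G18930), an S-adenosylmethionine decarboxylase known to act with ACL5, lies on chromosome 5 at 6311725 to 6313372 on the minus strand. It had 6, 9 and 14 counts in ore15-2 and 45, 48 and 39 counts in Col, which is 0.969, 1.79 and 0.801 CPM in ore15-2 and 2.33, 2.18 and 1.86 CPM in Col. The groups did not overlap, but ore15-2 replicate 2 lay just under the lowest Col library. Exact Poisson 95% intervals, which cover counting error only, were 0.818 to 3.40 CPM for that ore15-2 library and 1.33 to 2.55 CPM for Col replicate 3. The mean was 55.8% of that in Col. The log2 fold change, fitted with weight on the deeper libraries, was -1.02 (SE 0.31, 95% interval -1.71 to -0.33) and missed the threshold at an edgeR adjusted p of 0.0693. BUD2 passed in 4 of 19 alternatives and not in the other 15. Without ore15-2 replicate 2 it was -1.31 with an adjusted p of 0.0174, in a fit that called 11.3% of all genes, but without ore15-2 replicate 3 it was -0.69 with 0.159, and with the replicate block -0.93 with 0.122. Without ore15-2 replicates 1 and 2 it was -1.39 with 0.0176, where the lone ore15-2 library has no spread of its own. BUD2 also passed with limma on log2(RPKM + 1), at an adjusted p of 0.0487 where 6.19% of all genes were called. With no filter on RPKM the adjusted p was 0.0433, where 6.18% were called. In both of these fits the log2 fold change of BUD2 was -0.68 and the median of all genes was itself lowered to -0.21. Beside ACL5 the gene was rare: BUD2 stood at 1.99%, 3.94% and 1.41% of the ACL5 RPKM in ore15-2 and 2.26%, 2.05% and 1.75% in Col, so this ratio overlapped between the genotypes.

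VND6 (AT5G62380), on chromosome 5 at 25050152 to 25052054 on the plus strand, had 7, 5 and 24 counts in ore15-2 and 32, 34 and 41 counts in Col. As CPM these were 1.13, 0.994 and 1.37 in ore15-2 and 1.66, 1.54 and 1.96 in Col. The log2 fold change was -0.48 (SE 0.25, 95% interval -1.04 to 0.09, edgeR adjusted p 0.261). VND7 (AT1G71930), on chromosome 1 at 27074702 to 27077991 on the plus strand, had 10, 6 and 31 counts in ore15-2 and 47, 50 and 50 counts in Col. It reached 1.62, 1.19 and 1.77 CPM in ore15-2 and 2.44, 2.27 and 2.39 CPM in Col, with a log2 fold change of -0.55 (SE 0.22, 95% interval -1.06 to -0.05, edgeR adjusted p 0.151). The log2 fold changes were -0.31 for VND6 and -0.40 for VND7 without ore15-2 replicates 1 and 2. Neither switch gene passed in any of the 19 alternatives, though every ore15-2 library was below every Col library in both genes. VND6 overlaps BAG7 on the opposite strand by 77 bases, and BAG7 stood at 183 to 238 CPM in ore15-2 and 193 to 210 CPM in Col, far above VND6; how many of the VND6 counts come from there was not tested. With counts this low the intervals are wide: the Poisson interval of VND7 ran from 0.438 to 2.60 CPM in ore15-2 replicate 2 and from 1.69 to 2.99 CPM in Col replicate 2.

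MYB46 (AT5G12870), on chromosome 5 at 4062666 to 4065075 on the minus strand, had a wide spread among the ore15-2 libraries (SD 1.86 CPM, against 0.534 CPM in Col). It had 3.39, 2.19 and 5.83 CPM in ore15-2 and 4.67, 4.36 and 5.40 CPM in Col. The highest value of all 6 was ore15-2 replicate 3, and the lowest was ore15-2 replicate 2. The log2 fold change was -0.18 (SE 0.28, 95% interval -0.81 to 0.46, edgeR adjusted p 0.712). It was -0.78 without ore15-2 replicate 3 (edgeR adjusted p 0.0436), in a fit that called 35.3% of all genes. Without ore15-2 replicates 1 and 2 the log2 fold change was 0.29.

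**Figure D2:**
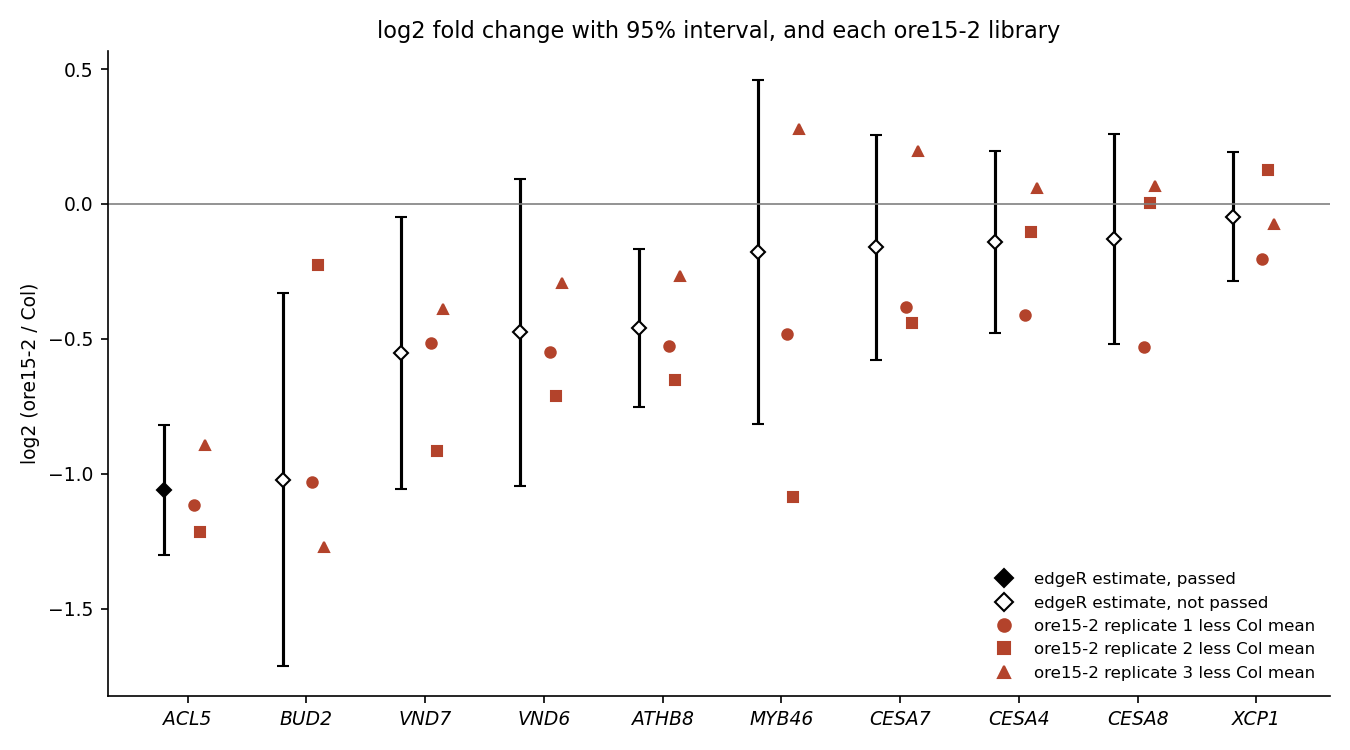
Log2 fold change of each member (diamonds, edgeR, ore15-2 over Col, bars 95% interval, filled where the adjusted p is under 0.05) with each ore15-2 library less the Col mean (red symbols), in order of the estimate. ACL5 alone is filled; the points of replicate 3 (triangles) lie above those of replicates 1 and 2 for 8 members and below them for BUD2.

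The cellulose synthase subunits CESA4, CESA7 and CESA8 overlapped between the genotypes. CESA4 (AT5G44030), on chromosome 5 at 17714390 to 17719723 on the plus strand, had 29.1, 36.0 and 40.3 CPM in ore15-2 and 33.2, 38.7 and 45.1 CPM in Col. CESA7 (AT5G17420), on chromosome 5 at 5736630 to 5741500 on the minus strand, had 25.0, 24.1 and 37.5 CPM in ore15-2 and 27.7, 33.0 and 38.3 CPM in Col. CESA8 (AT4G18780), on chromosome 4 at 10312624 to 10316886 on the minus strand, had 18.3, 26.4 and 27.7 CPM in ore15-2 and 22.5, 26.8 and 30.6 CPM in Col. Ore15-2 replicate 1 was the lowest of all 6 libraries in CESA4 and CESA8, and ore15-2 replicate 2 the lowest in CESA7, while replicate 3 fell inside the Col range in all 3 genes. The log2 fold changes were -0.14 (95% interval -0.48 to 0.20) for CESA4, -0.16 (-0.58 to 0.26) for CESA7 and -0.13 (-0.52 to 0.26) for CESA8, with edgeR adjusted p-values of 0.569, 0.599 and 0.656. Without ore15-2 replicates 1 and 2 they were 0.06, 0.20 and 0.07. CESA7 passed without ore15-2 replicate 3, at -0.45 with an adjusted p of 0.0310, in a fit that called 35.3% of all genes. CESA4 overlaps AT5G44020 on the same strand by 17 bases, at 397 to 758 CPM in ore15-2 and 416 to 423 CPM in Col, and AT5G44040 on the opposite strand by 65 bases. CESA7 overlaps AT5G17410 by 66 bases, and CESA8 overlaps MYB98 by 481 bases, both on the opposite strand. MYB98 had no row in the count table. For the overlaps on the opposite strand the limit given for ACL5 holds here too. Strand could not separate reads from the overlap of CESA4 with AT5G44020.

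The 3 subunits stood in near the same proportions in all Col libraries and varied more among the ore15-2 libraries. CESA4 took 39.2%, 40.6% and 37.3% of the RPKM summed over the 3 subunits in ore15-2 and 38.9%, 38.4% and 38.6% in Col. CESA7 took 34.5%, 27.7% and 35.5% in ore15-2 and 33.1%, 33.4% and 33.5% in Col, with ore15-2 replicate 2 the lowest, and CESA8 took 26.2%, 31.7% and 27.3% in ore15-2 and 28.0%, 28.3% and 27.9% in Col. Set against the 5 measured primary wall CESA genes, the secondary wall set reached 5.52%, 5.94% and 8.56% of their summed RPKM in ore15-2 and 7.46%, 8.53% and 9.48% in Col. Ore15-2 replicates 1 and 2 lay below all Col libraries and replicate 3 lay inside their range. The mean over libraries in ore15-2 was 0.786 of that in Col, and 1.01 when ore15-2 replicates 1 and 2 were left out.

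XCP1 (AT4G35350), on chromosome 4 at 16810482 to 16812077 on the plus strand, showed the smallest difference among the members. It had 69.1, 87.1 and 75.7 CPM in ore15-2 and 78.1, 81.2 and 79.8 CPM in Col, so the ore15-2 libraries lay on either side of a narrow Col range. Its log2 fold change was -0.05 (SE 0.11, edgeR adjusted p 0.805), and the 95% interval of -0.29 to 0.19 does not reach the fitted change of ACL5.

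CESA4 and XCP1 were the only members whose 300-base window held the tracheary element-regulating element, which 118 of 27431 windows held (0.43%). Their windows, on the plus strand of TAIR10.1 at chr5:17714090-17714389 for CESA4 and chr4:16810182-16810481 for XCP1, show that element in capitals, and in XCP1 also the auxin response element TGTCTC. The element starts at position -20 in CESA4 and -75 in XCP1, counted back from the annotated gene start.
CESA4: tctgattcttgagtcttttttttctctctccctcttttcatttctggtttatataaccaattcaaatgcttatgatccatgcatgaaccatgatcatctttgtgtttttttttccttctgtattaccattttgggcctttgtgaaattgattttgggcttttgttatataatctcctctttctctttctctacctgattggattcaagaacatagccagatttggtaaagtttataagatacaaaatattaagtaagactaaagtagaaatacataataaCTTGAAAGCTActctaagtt
XCP1: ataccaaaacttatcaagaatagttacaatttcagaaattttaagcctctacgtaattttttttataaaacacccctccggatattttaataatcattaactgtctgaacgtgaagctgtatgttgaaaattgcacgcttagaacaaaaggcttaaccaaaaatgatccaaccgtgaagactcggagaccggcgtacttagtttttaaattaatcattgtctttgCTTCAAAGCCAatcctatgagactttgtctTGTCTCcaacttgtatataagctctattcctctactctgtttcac
TGTCTC was present in the windows of VND6, ATHB8, CESA8 and XCP1, and in 13.0% of all windows. The matches describe these windows and are not sites shown to be used.

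Levels of different genes were compared per length, as deposited RPKM. In ore15-2 the order ran from XCP1 at 68.0 ± 7.07 RPKM and ACL5 at 46.0 ± 11.4 RPKM down to VND7 at 1.51, VND6 at 1.07 and BUD2 at 1.03 RPKM (SD, n = 3 libraries). Col had ACL5 first at 111 ± 0.808 RPKM, XCP1 next at 82.0 ± 0.762 RPKM, and VND7 at 2.67, BUD2 at 2.24 and VND6 at 1.81 RPKM last. ACL5 and XCP1 thus stood in opposite order in the genotypes, with no overlap between the genes within either. Between them and the rare regulators lay the CESA genes, ATHB8 and MYB46, at 4.45 to 10.6 RPKM in ore15-2 and 6.27 to 14.1 RPKM in Col, where neighbouring ranges overlapped except for CESA8 and MYB46 in Col. At the low end, VND6 overlapped VND7 and BUD2 in ore15-2, and BUD2 overlapped VND6 in Col.

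Ratios within a library do not depend on how libraries are scaled. ACL5 stood at 0.719, 0.533 and 0.767 of the XCP1 RPKM in ore15-2 and at 1.35, 1.34 and 1.37 of it in Col. Relative to ATHB8, ACL5 was 5.26, 5.36 and 5.13 in ore15-2 and 8.67, 7.61 and 7.50 in Col. ACL5 over the summed secondary wall CESA genes was 1.98, 1.54 and 1.58 in ore15-2 and 3.65, 3.17 and 2.76 in Col. The genotypes were separate in all 3 ratios, including for ore15-2 replicate 3. All 3 have ACL5 on top, the member that fell, so they are not separate evidence of its fall.

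**Figure D3:**
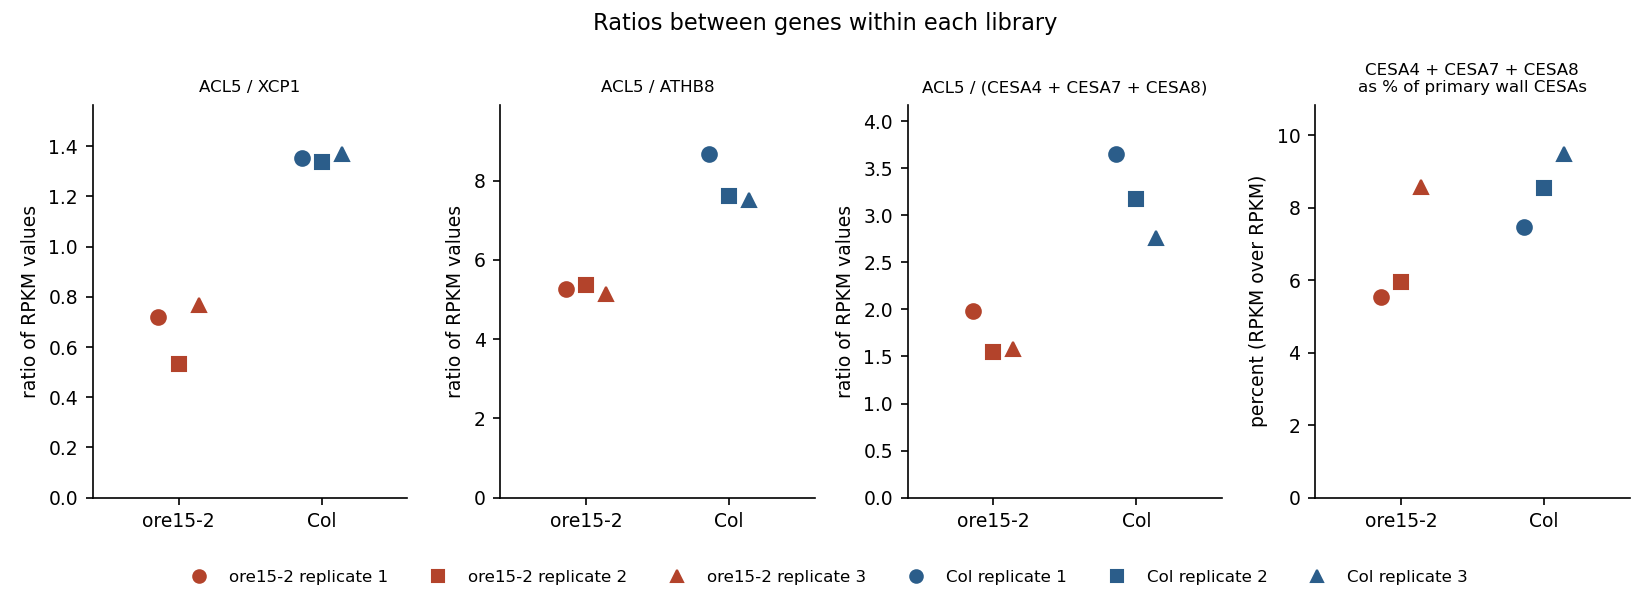
Ratios of RPKM between genes within each library for ore15-2 (red, left) and Col (blue, right), linear axes from 0. The 3 ratios with ACL5 on top do not overlap between genotypes, while the share of secondary over primary wall CESA genes places ore15-2 replicate 3 at 8.56%, inside the Col range.

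The ore15-2 libraries did not contribute equally. Over the 10 members the median log2 difference from the Col mean was -0.52 in replicate 1, -0.55 in replicate 2 and -0.17 in replicate 3. Over the 9 members other than ACL5 it was -0.52, -0.44 and -0.07. Replicates 1 and 2 are the libraries with 2.91% and 3.20% mitochondrial counts and the lowest depth, and the part of these in the medians was not tested. Leaving out ore15-2 replicate 3 called 4 members (ACL5, ATHB8, MYB46 and CESA7) where 35.3% of all genes were called. Leaving out ore15-2 replicates 1 and 2 called ACL5 and BUD2, where 16.6% were called, with 1 ore15-2 library set against the spread of Col alone.

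**Figure D4:**
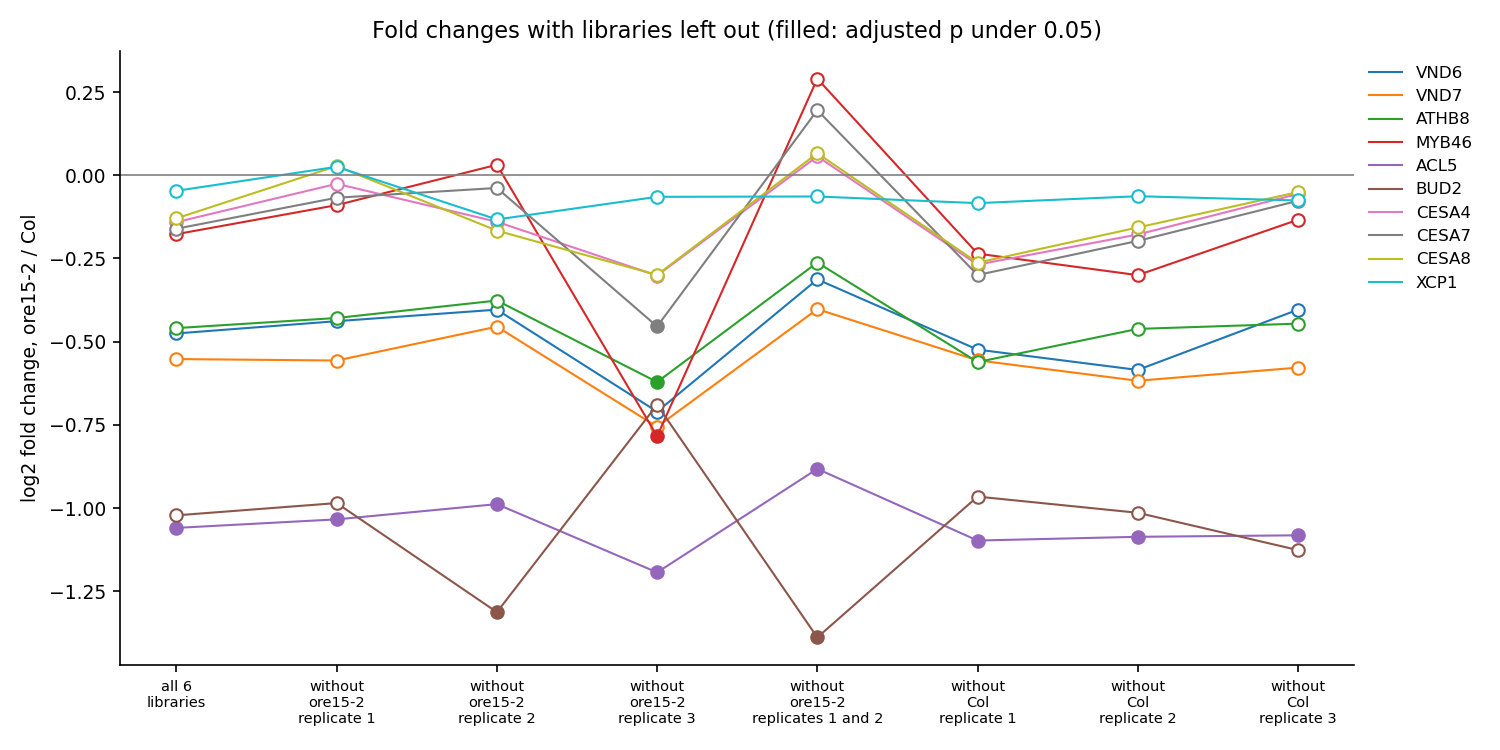
Log2 fold change of each member (lines join settings only to guide the eye) with all 6 libraries and with libraries left out; filled points have an edgeR adjusted p under 0.05. The setting without ore15-2 replicates 1 and 2 has 1 ore15-2 library and takes its spread from Col. ACL5 stays between -1.19 and -0.88 and filled throughout, while MYB46 ranges from -0.78 to 0.29.

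Other genes of the pathway were taken from 7 lists of 81 genes, of which 72 were in the count table and were tested. Of the 72, 6 rose, 3 fell and 63 did not pass, with a median log2 fold change of -0.16. Of the 6 that rose, SND3, IRX10 and RNS3 lie in the raised chromosome 1 block, where 317 of 400 tested genes rose. Outside the block, 3 of 67 rose and 3 fell. Over all genes tested, 6.47% rose and 3.43% fell.

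Among the 4 HD-ZIP III genes other than ATHB8, which pattern xylem and organ polarity, 1 fell. ATHB15 had 25.9, 26.6 and 32.1 CPM in ore15-2 and 38.1, 40.9 and 38.6 CPM in Col, with a log2 fold change of -0.46 (SE 0.11, edgeR adjusted p 0.0330). The call was lost in 9 of 19 alternatives, among them leaving out ore15-2 replicate 1 (0.130), each Col library in turn (0.0986 to 0.148), ore15-2 replicates 1 and 2 (0.0660, at a log2 fold change of -0.28), the 3 fits on RPKM (0.0744 to 0.0779) and the fit with the replicate number as a block (0.0510), which called 8.76% of all genes. The fits on RPKM, here and below, put the median log2 fold change of all genes at -0.21 to -0.23. PHB (-0.38) and REV (-0.39) were also below Col in every ore15-2 library without passing, as were 16.3% of all genes tested, passing or not. PHV, in the raised block, was above Col in every ore15-2 library, as were 18.2% of all genes tested. Its log2 fold change was 0.51 (edgeR adjusted p 0.0621).

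The 19 genes of polyamine synthesis, breakdown and response had 1 that rose, 0 that fell, and a median log2 fold change of 0.10. AT5G15950, annotated as an S-adenosylmethionine decarboxylase family protein, had 79.6, 67.2 and 38.6 CPM in ore15-2 and 31.8, 31.1 and 35.1 CPM in Col. Its log2 fold change was 0.90 (SE 0.22, edgeR adjusted p 0.0358), and the high values were those of replicates 1 and 2: without them it was 0.25 (adjusted p 0.108), and without replicate 1 alone 0.67 (0.148). It also missed the threshold without ore15-2 replicate 2 (0.0508), without each Col library in turn (0.101 to 0.158), with limma-voom (0.0547) and in the 3 fits on RPKM (0.62 to 0.63, adjusted p 0.105 to 0.112). Among genes that make other polyamines, the log2 fold change was 0.14 for the spermine synthase SPMS. It was 0.11 for the spermidine synthase SPDS1 and 0.00 for SPDS2, and none of these passed. PAO5, an oxidase that breaks thermospermine down, had 34.7, 37.4 and 38.8 CPM in ore15-2 and 40.0, 51.8 and 56.0 CPM in Col, at -0.41 (adjusted p 0.0879). SAC51, a bHLH gene through which thermospermine is known to act, was at -0.04.

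The 7 patterning genes had 0 calls by edgeR, while 3 had an unadjusted p under 0.05, as did 26.9% of all genes tested. DESeq2 called 2 of them, where it called 13.5% of all genes. All 7 estimates were negative, as were 50.1% of those of all genes tested, with a median of -0.34. TMO6, a DOF factor of the vascular cylinder, had 32.8, 34.2 and 35.1 CPM in ore15-2 and 39.9, 43.8 and 46.5 CPM in Col (-0.35, SE 0.10, adjusted p 0.0568). T5L1, a bHLH partner of LHW in early vascular divisions, had 28.8, 26.2 and 33.1 CPM in ore15-2 and 34.8, 42.4 and 48.5 CPM in Col (-0.50, SE 0.14, adjusted p 0.0593). Both genes were below Col in every ore15-2 library, as were 16.3% of all genes tested. T5L1 passed in 4 of 19 alternatives: with the replicate block (0.0392), upper-quartile scaling (0.0452), DESeq2 (0.0337) and without ore15-2 replicate 3 (0.00654). TMO6 passed in 7 of 19. These were the 3 fits on RPKM (0.0401 to 0.0446), where the median of all genes was -0.21 to -0.23, and upper-quartile scaling (0.0338). The others were DESeq2 (0.0462), the stricter filter on CPM (0.0492) and the fit without ore15-2 replicate 3 (0.0119), which called 35.3% of all genes. TMO6 did not pass with the replicate block (0.101). Without ore15-2 replicates 1 and 2 its log2 fold change was -0.30.

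Of the 15 other NAC, MYB and LBD regulators, 1 fell and 1 rose. XND1, a NAC factor that restrains vessel formation, had 5, 6 and 24 counts in ore15-2 and 43, 58 and 58 counts in Col. As CPM these were 0.808, 1.19 and 1.37 in ore15-2 and 2.23, 2.63 and 2.77 in Col (-1.09, SE 0.26, edgeR adjusted p 0.0292). The call thus rests on few counts in ore15-2. That call was lost without ore15-2 replicate 1 (0.0936), without ore15-2 replicates 1 and 2 (0.0672) and without each Col library in turn (0.0606 to 0.113). SND3, a NAC factor of secondary wall cells in the raised block, had 19.4, 10.3 and 24.7 CPM in ore15-2 and 8.24, 9.04 and 8.89 CPM in Col (1.10, SE 0.26, adjusted p 0.0273), a call lost without ore15-2 replicate 1 (0.106), without each Col library in turn (0.109 to 0.142) and in the 3 fits on RPKM (0.70 to 0.74, adjusted p 0.203 to 0.210). The other VND genes did not pass: VND3 was at -0.44 and VND4 at -0.57. Both were below Col in every ore15-2 library, as were 16.3% of all genes tested. VND1, VND2 and VND5 overlapped between genotypes.

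Wall genes moved in both directions. Among the 5 primary wall CESA genes, which build the walls of growing cells, CESA5 rose, at 66.9, 60.0 and 62.0 CPM in ore15-2 and 42.3, 43.0 and 46.3 CPM in Col (0.52, SE 0.09, edgeR adjusted p 0.00843). It did not pass without Col replicate 1 (0.0685) or without Col replicate 2 (0.0893), nor in the 3 fits on RPKM (0.28 to 0.30, adjusted p 0.228 to 0.231). Of 17 other secondary wall, xylan and lignin genes, 2 rose and 1 fell, and their median was -0.20. FRA8, a glycosyltransferase of xylan synthesis, had 50.1, 46.5 and 63.4 CPM in ore15-2 and 77.8, 85.3 and 87.6 CPM in Col (-0.64, SE 0.13, adjusted p 0.0147), and its call was lost without ore15-2 replicate 1 (0.0802), Col replicate 2 (0.0707) or Col replicate 3 (0.0622). Its log2 fold change was -0.39 without ore15-2 replicates 1 and 2. IRX10, which extends the xylan backbone and lies in the raised block, had 47.0, 50.7 and 48.6 CPM in ore15-2 and 21.4, 22.6 and 23.4 CPM in Col (1.12, SE 0.09, adjusted p 0.000312). IRX15-L, needed for normal xylan deposition, had 27.6, 38.4 and 29.4 CPM in ore15-2 and 19.7, 21.8 and 23.1 CPM in Col (0.55, SE 0.14, adjusted p 0.0385), a call lost without ore15-2 replicate 1 (0.0642), without each Col library in turn (0.110 to 0.183) and in the 3 fits on RPKM (0.31 to 0.32, adjusted p 0.144 to 0.146). Of the 5 vessel proteases and nucleases, only the ribonuclease gene RNS3 passed, in the raised block, at 26.5, 33.8 and 27.4 CPM in ore15-2 and 17.1, 16.6 and 15.3 CPM in Col (0.83, SE 0.13, adjusted p 0.00386). The calls of IRX10 and RNS3 held in all 18 alternatives that kept the block. XCP2, the close relative of XCP1, was at -0.22 (adjusted p 0.212).

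**Figure D5:**
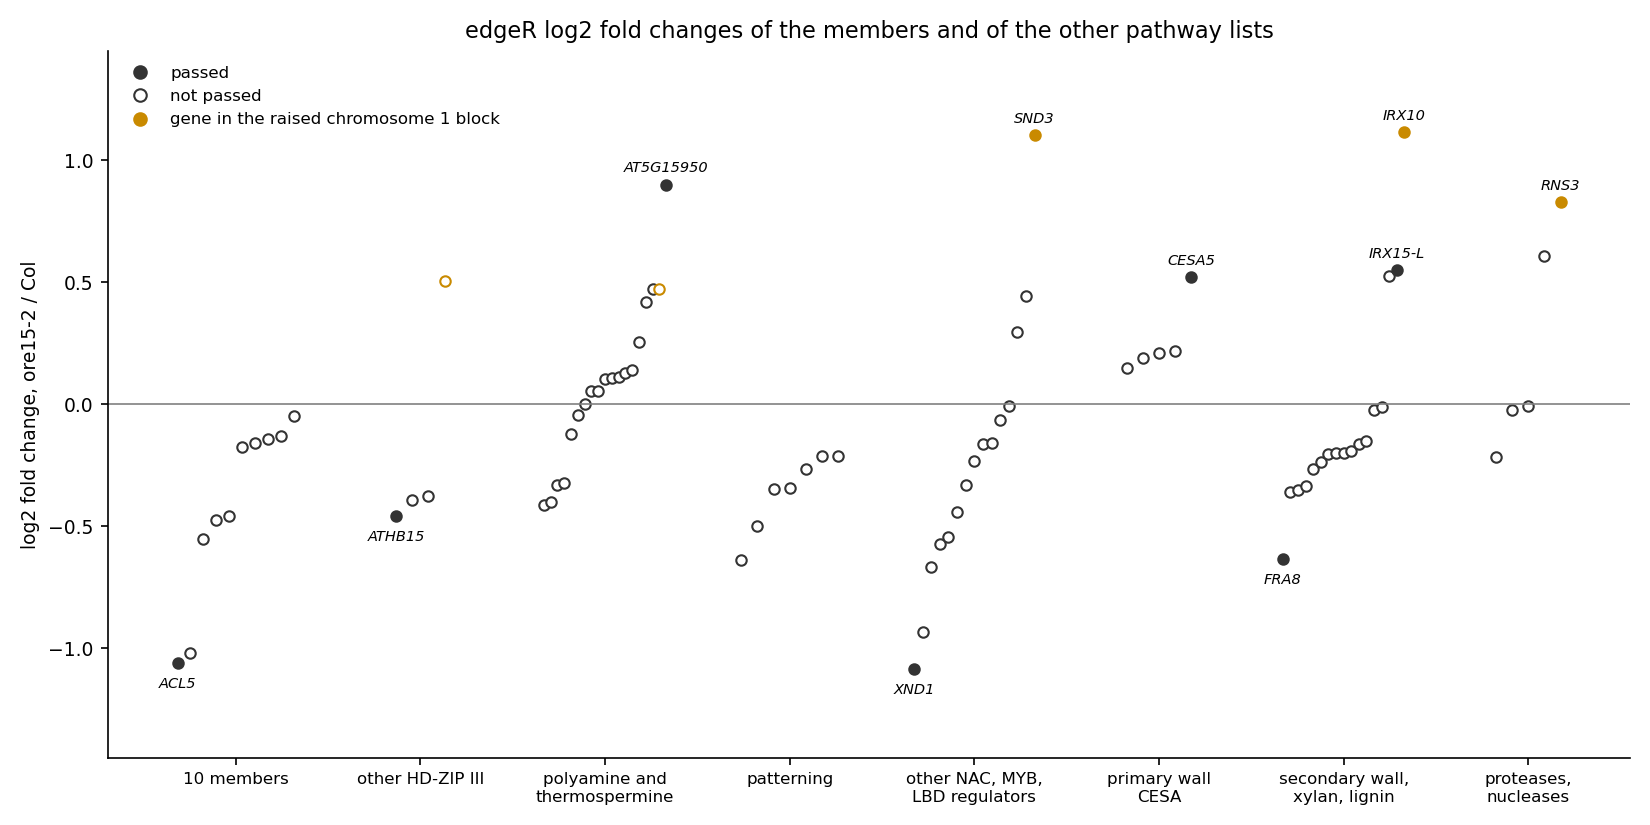
EdgeR log2 fold changes (ore15-2 over Col) of the 10 members and the 72 tested genes of the 7 other lists, 1 point per gene; filled points passed the threshold and orange points lie in the raised chromosome 1 block. Outside the block, ACL5, ATHB15, XND1 and FRA8 are filled below 0, and AT5G15950, CESA5 and IRX15-L above it.

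Markers of other cell types differed between the same libraries. Over all genes tested 3.43% fell and 6.47% rose. Of 5 phloem genes 3 fell (SUC2, SEOR1 and PP2-A1), while CALS7 went the other way at 0.17 without passing. The phloem list summed to 26.2 to 53.2 RPKM in ore15-2 and 88.3 to 102 RPKM in Col. Of 5 root hair genes 4 rose, with sums of 468 to 648 RPKM in ore15-2 and 330 to 396 RPKM in Col. The RPKM offset given above holds for these sums. In ore15-2 replicates 1 to 3 the median log2 difference from the Col mean was -0.96, -1.04 and -0.42 for the phloem list. For the root hair list it was 0.44, 0.94 and 0.48. CASP4, 1 of the 5 Casparian strip genes, and 1 of the 4 root cap genes (FEZ, in the raised block) rose. The 5 meristem genes had no call by edgeR, none by DESeq2 and 0 genes at an unadjusted p under 0.05. The part of these shifts in the ACL5 difference was not tested.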

How the data were processed

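Per the labels' protocols, total RNA of integrity number 6.7 and above was poly(A)-selected, made into stranded libraries and sequenced on an Illumina instrument. The authors deposited 1 table of whole counts of reads and 1 of RPKM. FastQC, cutadapt, TopHat2, HTSeq and the build TAIR10 are named in the submitters' processing notes. For the annotation release and the strand setting, the sources used here give nothing. In all 18340 genes of the RPKM table the authors' RPKM and counts implied 1 gene length within a relative tolerance of 0.0001, so RPKM is no separate measurement.

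The counts went into edgeR 4.0.16 under R 4.3.3 (quasi-likelihood F-test, TMM scaling, filterByExpr, genotype as the only term), with Benjamini-Hochberg adjustment over 18726 genes and a threshold of 0.05. The standard error is the absolute log2 fold change over the square root of F, and the 95% interval uses the degrees of freedom of that test. Log2 CPM per library used a prior count of 2. On simulated counts of this comparison with 18725 genes, the procedure called 96 of 100 genes changed 2-fold and 99 of 100 changed 4-fold, with 12 false calls; the changed genes had a mean of at least 5 CPM, so VND6, VND7, MYB46 and BUD2 lie below that range. No libraries of a genotype agreed within sampling noise. Chi-square per gene was 2.14 to 4.91 between Col libraries and 7.00 to 49.1 between ore15-2 libraries. The simulation gave both genotypes the same dispersion per gene, so its recovery and false calls may not carry over to these libraries. A count of 3 equals 0.172 to 0.596 CPM in ore15-2 and 0.136 to 0.156 CPM in Col, and such floors cover counting error only.

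Alternatives used DESeq2 1.42.0, limma 3.58.1, limma-voom, other scalings, filters and libraries left out. Gene positions and windows of 300 bases came from the RefSeq annotation of TAIR10.1, and no coordinates were in the deposited tables. The members and lists were chosen with earlier results of these data known, and the bounds of the chromosome 1 block were chosen from the values. Named are all members and, in each other list, the genes past the threshold or, where none passed, the 2 with the smallest p; other genes of the lists were picked after their values were seen. Of the 81 listed genes, 9 had no row in the count table used here.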

Additional observations from a re-analysis of the deposited data

How the results depend on the processing

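Of 396 values of the 21 named genes under 19 alternatives, 323 kept their direction and their side of the threshold, 46 lost a call, 20 gained one and 7 turned sign. Genes called numbered 1854, against 1110 with limma on log2(RPKM + 1) (469 rose, 641 fell), 1037 with log2(RPKM + 0.1) (447 rose, 590 fell) and 1133 without the RPKM filter (474 rose, 659 fell). With counts 1211 rose and 643 fell; the RPKM fits shift the median of all genes by -0.21 to -0.23 on the log2 scale, so changes there are relative to that. Leaving out 1 library gave 634 to 6612 genes, 1 to 4 members and 2 to 27 other list genes. The share of secondary over primary wall CESA levels, as ore15-2 over Col (the CESA ratio), was then 0.675 to 0.854. Members called were 1, and 2 with upper-quartile scaling, DESeq2 and limma on log2(RPKM + 1) with or without its filter. Without ore15-2 replicates 1 and 2, an alternative chosen after seeing the data, 3109 genes, 2 members and 22 of the other list genes were called (9 in all libraries) and the CESA ratio was 1.01 (0.786 in all libraries). That fit has 1 ore15-2 library and takes its spread from Col alone, so its counts are not on the footing of the 3-library fit.

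Without ore15-2 replicates 1 and 2 the sign turned for MYB46 (0.29), CESA4 (0.0566), CESA7 (0.20) and CESA8 (0.066). With 1 library left out, the log2 fold change ranged from -0.784 to 0.0314 for MYB46, from -0.2995 to 0.0275 for CESA8 and from -0.1329 to 0.0253 for XCP1. The positive ends are those without ore15-2 replicate 2 for MYB46 and without ore15-2 replicate 1 for CESA8 and XCP1. The cause was not tested. Same-numbered libraries of the genotypes correlated at 0.0584, 0.133 and -0.254 in their deviations from the group means, so the numbers were not taken to pair the libraries; with the replicate block 1641 genes, 1 member and 10 list genes were called. The low counts of VND6, VND7 and BUD2 limit what 3 libraries can show.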
